A study of Mus musculus with 18 samples.

Results

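Thyroids of wild-type (WT) C57BL/6 mice kept on a low-iodine diet were compared with thyroids of WT mice on a normal diet, by gene expression on single-colour Agilent mouse arrays. The comparison took the 4 arrays whose titles name the low-iodine diet and the 5 whose titles name WT thyroid alone, 9 of the 18 arrays of the series. All mice were 1 month old, were weaned at 3 weeks and received NIH31 (normal) or a low-iodine Harlan diet, the latter for 6 days. The other 9 arrays hold thyroids of Glis3KO2 mice, in which the transcription factor gene Glis3 is targeted, 5 on the normal and 4 on the low-iodine diet. They entered as a second measurement of the same diet contrast, and in the fit, where all 18 arrays set the spread of each gene. They also counted in the filter on dim probes and in the choice of the brightest probe of a gene. The sex of the mice and the pooling of glands are not given in the sources used here.

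The thyroid takes up iodide through the sodium-iodide symporter, binds it to thyroglobulin in the follicle lumen and releases thyroid hormone after the protein is digested. When dietary iodine is short, the pituitary secretes more thyrotropin, which acts on follicular cells through the thyrotropin receptor and cAMP, raises iodide uptake and, when it persists, makes the gland grow and its blood vessels multiply. The comparison asks what the low-iodine diet did to the WT gland's transcripts.

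In these data the diet cannot be told apart from the array set, which bears on every value that follows. Slides 1, 2 and 3 carried the 5 normal-diet arrays and slides 4 and 5 the 4 low-iodine arrays, each set with a scanner model and a software release of its own, and no slide held both diets. The p-values here therefore set the difference between the array sets against the spread between arrays within a group. That spread, and each SE of the fit, was estimated over all 4 groups of the 18 arrays, Glis3KO2 included. The brightest thousandth of spots began at 108307 to 139225 units on the normal-diet arrays and at 29418 to 31044 on the low-iodine arrays, while 69.7% to 75.7% and 79.5% to 90.6% of probes were well above background. Low-iodine replicate 2 stood apart from the other 3 of its group, with a median signal of 191.5 against 76.1 to 81.7 on the others. Spike-in probes, which detect RNA added in the laboratory and none from the thyroid, showed the same split. Of 10 such probes, 7 were lower on every low-iodine array than on every normal-diet array after scaling, with differences of down to -5.08 on the log2 scale. The 3 dimmest were not.

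**Figure D1:**
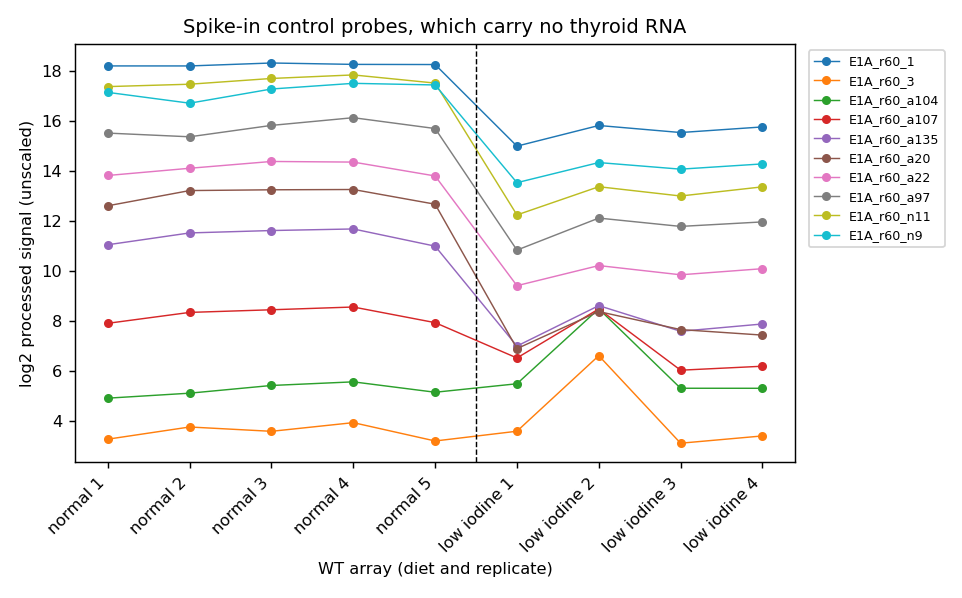
Unscaled log2 processed signal of the 10 spike-in control probes on each of the 9 WT arrays, 1 line per probe, with a dashed line between the diets. The brighter probes drop from the normal-diet to the low-iodine arrays (E1A_r60_a20 from a mean of 13.004 to 7.59), whereas E1A_r60_3 has means of 3.55 and 4.17 and is high on low-iodine replicate 2.

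Because of this split, the description rests on genes read by 2 or more probes, and states for each whether all its probes moved the same way. Values are the log2 processed signal of a probe minus the 75th percentile of its array, called the scaled level below, and a difference is the low-iodine mean minus the normal-diet mean of scaled levels. The array held probes of 19096 named genes, 6862 of them with at least 2 probes. After probes above background on fewer than 4 arrays were removed, 17932 genes were tested, of which 6465 kept 2 or more probes (15056 probes, at most 8 of a gene). A gene was called when the limma p-value of its brightest probe, adjusted over all genes, was under 0.05, and was an every-probe call when each of its probes passed that threshold in the same direction, adjusted over all probes.

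Most genes passed. The gene-level test called 75.9% of the 17932 genes (7063, or 39.4%, higher and 6541, or 36.5%, lower on low iodine). Every-probe calls were fewer: 1563 genes rose (24.2% of the 6465) and 860 fell (13.3%). On every probe by at least 2-fold, 1155 rose (17.9%) and 589 fell (9.11%). In 1986 genes (30.7%) every probe passed in 1 direction and the arrays of the diets did not overlap on any probe. In 2789 genes (43.1%) the probes had both signs, and in 1558 (24.1%) probes of the same gene passed the threshold in opposite directions. Probes of 1 sign without all of them passing were found in 1253 genes (19.4%). Of the 4967 genes with 2 or more probes that the gene-level test called (76.8%), 2009 (40.4%) had probes of both signs. Among the 4796 genes with exactly 2 probes, the correlation of the probes' differences across genes was 0.33, and 62.1% had the same sign. Genes are not independent replicates, and probes of a gene share its transcript. The background for each list count below is 39.4% of genes higher and 36.5% lower, and 24.2% and 13.3% on every probe.

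**Figure D2:**
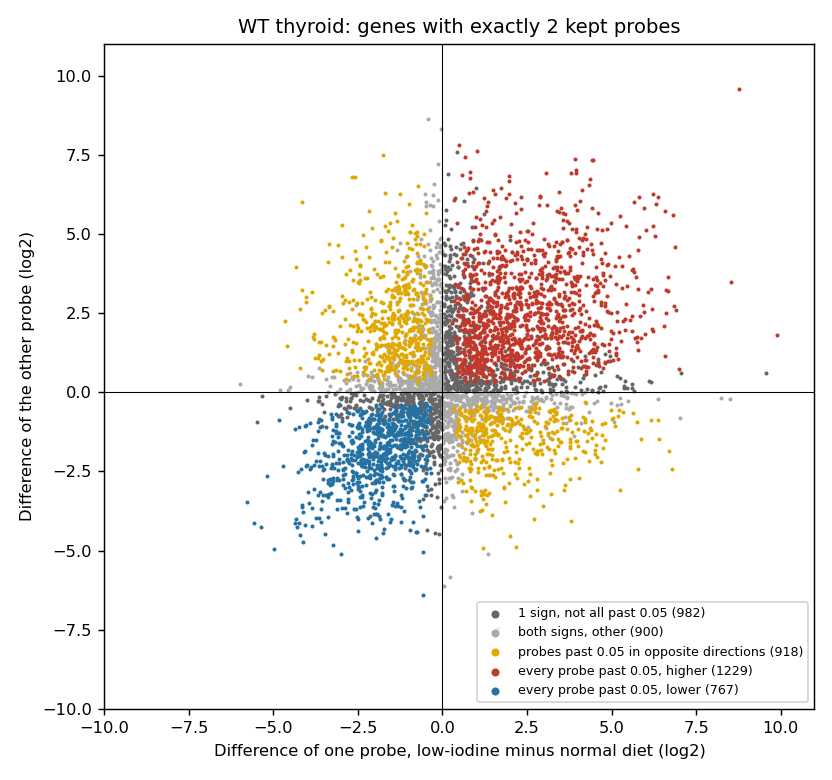
Differences between the diets (log2, low-iodine minus normal) of both probes for the 4796 WT genes with exactly 2 kept probes, 1 point per gene, coloured by whether the probes passed the 0.05 threshold and in which direction. Points in the upper left and lower right quadrants are genes whose probes moved in opposite directions.

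Glis3KO2 thyroids gave much the same differences between the diets. Across the 17932 genes the correlation of the WT and the Glis3KO2 difference was 0.944, the genotypes sharing slides and scanners but no array, and the gene-level test called 74.4% of genes in Glis3KO2. The difference between the WT and the Glis3KO2 value (WT minus Glis3KO2) was therefore tested too, and is given for part of the named genes. Each slide held both genotypes in equal number, so a shift that is the same for all arrays of a slide cancels in it. It was above 0 past the threshold for 155 genes (0.864%) and below 0 for 64 (0.357%). The cancellation was not complete: in the dimmest of 10 equal groups of genes by level the WT difference had a median of 3.15, the Glis3KO2 difference 2.37 and their gap 0.65, against -0.93, -0.87 and -0.11 in the brightest.

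Genes of thyroid hormone synthesis moved in both directions. Of the 20 measured, 7 were higher and 6 lower, beside 39.4% and 36.5% of all genes. Their median difference was 0.054 against 0.08 over all genes. Only 4 of them had 2 or more probes. Thyroglobulin (Tg), the hormone's precursor protein, fell on both probes, and the thyrotropin receptor (Tshr) rose on both. Slc16a10, an aromatic amino acid transporter, had probes of both signs (-1.06 to 0.88 over its 3 probes), and the potassium channel subunit Kcne3 had differences of 0.15 and 0.10 that did not pass. All 10 follicular cell markers measured, of 11 listed, were well above background on all 9 arrays. So were all 13 endothelial and all 5 parathyroid markers measured, and 14313 genes had such a probe. This outcome therefore does not check the tissue label.

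The scaled levels of Tg were 8.65, 8.66, 8.46, 8.85 and 8.56 on the normal diet and 7.01, 6.41, 6.53 and 6.72 on low iodine. Every low-iodine array lay below every normal-diet array. The difference was -1.97 ± 0.18 (SE of the fit, n = 5 and 4; 3.91-fold lower; limma adjusted p = 2.35e-08) and -2.003 on the other probe, beside -1.75 in Glis3KO2. After quantile normalization it was -0.21 and after normexp correction with quantile normalization -0.20, neither past the threshold.

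For Tshr the scaled levels of the brighter probe were 0.50, -0.43, -0.87, -0.44 and 0.059 on the normal diet and 1.20, 1.09, 1.52 and 1.21 on low iodine. The groups did not overlap on this probe or on the other. Its difference was 1.49 ± 0.34 (limma adjusted p = 0.000797) on the brighter probe and 6.37 on the other, so that the probes shared a direction but not a size. In Glis3KO2 the differences of the same probes were 0.11 and 5.84, and the gap between the genotypes on the brighter probe, 1.38 ± 0.48, did not pass (adjusted p = 0.197). With the array median as the scale, the Tshr difference was 0.44 and no longer past the threshold.

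The sodium-iodide symporter (Slc5a5) was read by a single probe, so agreement of probes cannot be stated for it. Its scaled levels were -0.88, -1.19, 0.56, -0.56 and -1.78 on the normal diet and 4.15, 3.67, 3.98 and 4.25 on low iodine, with no overlap. It rose by 4.78 ± 0.41 (27.5-fold; limma adjusted p = 1.58e-08), against 1.41 in Glis3KO2, and the gap of 3.38 ± 0.58 between the genotypes passed (adjusted p = 0.00987). It was the sole member of the list to do so.

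The remaining synthesis genes had 1 probe each as well. Iodotyrosine deiodinase (Iyd), which recovers iodide from unused iodotyrosines, rose by 2.45, the chloride and iodide channel Ano1 by 1.75 and the hormone-inactivating deiodinase Dio3 by 3.00. The Dio3 difference was 2.34 without low-iodine replicate 2, which lay far above the other 3, and 0.79 after normexp with quantile normalization, past the threshold in both. The amino acid transporter Slc7a8 rose by 1.60, a call lost with array median scaling (0.55). The oxidase maturation factor Duoxa2 (-0.82, and -0.18 and not past after cyclic loess) and the apical transporter Slc5a8 (-1.10) fell, and the apical iodide exchanger pendrin (Slc26a4) rose by 0.94. The Slc26a4 call was lost under most alternatives. In Glis3KO2 the differences were 1.66 for Iyd, 1.23 for Ano1, 1.70 for Dio3 and 1.98 for Slc7a8. Those of Duoxa2, Slc5a8 and Slc26a4 were -1.07, -0.46 and 2.52. None of these genes had a gap between the genotypes past the threshold. Duox1 (-0.36), Dio1 (-0.12), Dio2 (0.19), Slco1c1 (-0.13), Kcnq1 (0.36) and Kcne2 (-0.042) did not pass.

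Mitosis genes were the list with the highest median. Of 54 measured, 45 were higher and 3 lower, with a median difference of 2.71 against 0.08 over all genes. Of the 25 with 2 or more probes, 19 rose on every probe, none fell on every probe, and 3 had probes of both signs (Bub1, Bub3 and Cenpe). The 19 were Mki67, Top2a, Ccnb1, Plk4, Cenpf, Cenpk, Kif11, Kif20b, Kif23, Kif4, Kif15, Anln, Ect2, Ncapg, Smc2, Ckap2, Aspm, Hmmr and Racgap1, which cover a mitotic cyclin, spindle motors, kinetochore, condensin and cytokinesis proteins. Averaged over the list, the scaled levels were -3.05 to -0.63 on the normal diet and 0.46 to 0.75 on low iodine, so the arrays did not overlap. In a bulk gland, more dividing cells and more of these transcripts per cell cannot be told apart.

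Under the 5 other scalings the median of the mitosis list stayed between 1.66 and 2.57, and 11 to 18 genes rose on every probe. Without low-iodine replicate 2 the count was 19, and without normal-diet replicate 5, which had the highest list mean of its group, it was 21. In Glis3KO2 the list had a median of 1.02. The gap between the genotypes had a median of 1.79 and was above 0 past the threshold in 13 of the 54 genes and below 0 in none, beside 0.864% and 0.357% of all genes. The WT normal-diet arrays enter both the WT difference and the gap, and the mitosis genes were dim and variable on them. The list mean had a median of -1.97 over these arrays. In the dimmer groups of genes by level the median gap of all genes was also above 0, but smaller. That median was 0.65 in the dimmest group and -0.11 in the brightest, against 1.79 for the mitosis list. The groups were formed on levels over the WT arrays of both diets, whereas -1.97 is a level on the normal diet alone. The value of -1.97 therefore does not place the list in any of the groups. The part of level in the mitosis gap was not tested.

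Promoters of the mitosis genes are shown for Anln, which had the largest rise of the list, and for Kif20b and Smc2, the others named by rule that hold a searched motif. The cell cycle genes homology region (CHR, searched as TTTGAA) and the CCAAT box (searched as CCAAT) are promoter elements known from genes expressed in mitosis, and capitals mark every match on either strand. The sequences run 5′ to 3′ from 250 bases before to 50 after the transcription start, from RefSeq on GRCm38.p6: Anln at chr9:22389157-22389456 on the minus strand, Kif20b at chr19:34922108-34922407 and Smc2 at chr4:52438971-52439270, both on the plus strand. The promoter of Plk4 held neither motif.
Anln: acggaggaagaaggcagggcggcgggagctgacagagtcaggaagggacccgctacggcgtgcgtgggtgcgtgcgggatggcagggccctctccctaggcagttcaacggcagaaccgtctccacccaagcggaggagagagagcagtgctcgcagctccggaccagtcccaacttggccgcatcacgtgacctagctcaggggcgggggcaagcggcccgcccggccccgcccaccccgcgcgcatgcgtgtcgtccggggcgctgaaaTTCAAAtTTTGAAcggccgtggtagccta
Kif20b: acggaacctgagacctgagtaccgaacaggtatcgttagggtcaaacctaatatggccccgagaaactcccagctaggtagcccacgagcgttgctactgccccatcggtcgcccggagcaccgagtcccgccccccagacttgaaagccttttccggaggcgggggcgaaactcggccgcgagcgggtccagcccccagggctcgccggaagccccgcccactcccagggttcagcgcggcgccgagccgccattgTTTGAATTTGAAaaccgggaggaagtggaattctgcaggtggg
Smc2: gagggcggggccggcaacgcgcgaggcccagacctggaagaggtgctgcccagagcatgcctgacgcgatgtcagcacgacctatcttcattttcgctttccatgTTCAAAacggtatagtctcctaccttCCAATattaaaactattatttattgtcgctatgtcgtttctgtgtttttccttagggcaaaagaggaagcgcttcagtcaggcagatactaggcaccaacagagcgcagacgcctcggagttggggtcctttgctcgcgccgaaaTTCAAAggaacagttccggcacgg

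Among the 22 RefSeq promoters of the 19 genes, 17 (77.3%) held the CHR letters, against 17.9% of all 32851 promoters of the same length, and 18 (81.8%) held CCAAT, against 37.4%. Both were present in 14 (63.6%), against 6.95%. Of the 55 promoters of the whole mitosis list, 76.4% held CHR. The motifs can share a terminal base where they abut, both strands were searched, and a match is a description of the sequence only.

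Anln encodes anillin, a scaffold of the contractile ring. Its scaled levels on the brighter probe were -5.58, -4.23, -6.52, -6.47 and -5.80 on the normal diet and 0.61, 0.47, 0.55 and 0.79 on low iodine, with no overlap. On the normal diet this probe was well above background on 3 of 5 arrays and the other on 2. It rose by 6.33 ± 0.50 (limma adjusted p = 4.77e-09) and by 5.93 on the other probe, against 4.01 in Glis3KO2. The gap between the genotypes was 2.32 ± 0.70 (adjusted p = 0.123).

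Kif20b, a kinesin of cytokinesis, had scaled levels of -3.98, -4.16, -4.39, -4.29 and -2.85 on the normal diet and 0.25, -0.13, 0.42 and 0.42 on low iodine on its brightest probe. All low-iodine arrays lay above all normal-diet arrays, although normal-diet replicate 5 was nearer to them than the rest. The differences of its 3 probes were 4.18, 2.53 and 2.59, all higher (the last well above background on 2 of 5 normal-diet arrays), and the gap between the genotypes on the brightest was 2.60 ± 0.45 (limma adjusted p = 0.00987). Smc2, a condensin subunit, rose on all 4 probes by 1.39 to 5.78, the probe with the largest rise being well above background on 1 of 5 normal-diet arrays. Plk4, the kinase that starts centriole duplication, rose on both by 2.67 and 3.15. Their gaps between the genotypes, 0.88 and 1.16, did not pass.

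DNA replication and repair genes were less uniform. Of 49 measured, 24 were higher and 9 lower (median 0.69), and of the 13 with 2 or more probes, 7 rose and 1 fell on every probe, with 3 of both signs. The rises included the S-phase transcription factor E2f1 (4.11 and 0.91), cyclin E2 (Ccne2, 4.32 and 3.00) and the checkpoint kinase Chek1 (4.24 and 3.39). In Glis3KO2 the list had a median of -0.26, and 4 members had a gap above 0 past the threshold. Relative to the median of all genes, the list stood at 0.35 to 0.67 over all scalings, although its own median was -0.37 with array median scaling.

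Matrix genes moved in both directions. Of 48 extracellular matrix genes, 22 were higher and 12 lower (median 0.49), beside 39.4% and 36.5% of all genes. Of the 24 with 2 or more probes, 8 (33.3%) rose on every probe, 1 fell and 8 had both signs, beside 24.2% of genes that rose on every probe, so these counts of rises were near the background. The risers were the basement membrane collagens Col4a1 and Col4a2, the fibrillar collagens Col5a1 and Col5a3, fibronectin (Fn1), fibrillin (Fbn1), tenascin C (Tnc) and the protease Adamts1. Col18a1, another basement membrane collagen, fell on both probes (-2.43 and -1.11). The gap between WT and Glis3KO2 was above 0 past the threshold in 12 of the 48 and below 0 in none, beside 0.864% and 0.357% of all genes. Relative to all genes the list stood at 0.42 to 1.13 over the scalings, its own median turning sign with array median scaling (-0.56).

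Col4a1 had scaled levels of 1.91, 2.27, 2.64, 2.23 and 2.26 on the normal diet and 4.05, 3.98, 4.15 and 4.61 on low iodine on the brighter probe. The groups did not overlap, and the low-iodine arrays stood higher on both probes. The differences were 1.94 ± 0.22 (limma adjusted p = 4.98e-07) and 1.36, whereas Glis3KO2 gave 0.19, and the gap of 1.75 ± 0.31 passed (adjusted p = 0.0126). Col5a3 rose by 1.87 and 1.94, with a gap of 1.45 on the brighter probe (adjusted p = 0.0308) that did not pass on the other. For Col5a1 the differences were 2.43 and 1.26, and its gap of 1.09 did not pass.

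Genes of blood vessel growth gave 21 higher and 6 lower of 36 (median 0.91, or 0.84 to 1.56 relative to all genes over the scalings and -0.14 in itself with array median scaling), and of 13 with 2 or more probes 5 rose and 1 fell on every probe and 6 had both signs. Vegfa and Vegfb, the growth factors themselves, were among the 3 genes whose probes passed in opposite directions, so no direction is given for them. Angiopoietin 1 (Angpt1) was higher on both probes, but these were well above background on 2 and on 0 of the 5 normal-diet arrays, and the difference of the brighter moved from 3.63 to 0.79 after normexp with quantile normalization. The vessel-patterning ligand Efnb2 rose by 1.70 and 5.69 and the chemokine receptor Cxcr4 by 3.29 and 1.22. The receptor Flt1 fell by 2.64 on the brighter probe and had -0.68 on the other. The gap between the genotypes did not pass for these 4. It was above 0 past the threshold in 3 of the 36 and below 0 in none. The peptide hormone gene Apln, named after its values were seen, was one of the 3: it rose on all 3 probes (1.80 to 3.17), against -0.86 in Glis3KO2 on the brightest, a gap of 2.66 ± 0.42 (limma adjusted p = 0.00622).

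Cdh5, the cadherin of endothelial junctions, had scaled levels of 0.34, 1.08, 0.92, 1.29 and 0.51 on the normal diet and 3.88, 3.51, 3.52 and 3.71 on low iodine. No array of either group entered the range of the other. It rose by 2.83 ± 0.22 and 3.36 on its probes (limma adjusted p = 4.77e-09 for the brighter), against 1.31 in Glis3KO2, with a gap of 1.51 ± 0.31 (adjusted p = 0.0261). Across the 13 endothelial markers, 6 were higher and 6 lower, beside 39.4% and 36.5% of all genes. Their median difference was -0.31 (-1.13 in Glis3KO2), against 0.08 over all genes. Their list mean moved the other way, from 0.30 to 1.05 on the normal diet to 1.22 to 1.502 on low iodine. The fibroblast markers gave 1 higher and 6 lower of 14, with a mean of 2.22 to 2.67 on the normal diet and 1.21 to 1.69 on low iodine. The part of cell composition in the matrix and vessel values was not tested.

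Thyrotropin acts through cAMP, and genes of that pathway and of the early response were followed as a list. Of 43, 20 were higher and 8 lower, beside 39.4% and 36.5% of all genes. The median was 0.54 (0.55 in Glis3KO2), or 0.47 to 1.05 relative to all genes over the scalings. Of 14 with 2 or more probes, 7 (50%) rose on every probe, beside 24.2% of genes, none fell on every probe and 6 had both signs. With array median scaling the list's own median was -0.51, with 12 genes higher and 17 lower. On every probe, 3 then rose and 3 fell, and after quantile normalization 4 rose and 2 fell. Zfp36, an early-response gene for an RNA-decay protein, had scaled levels of 0.41, 0.38, 0.33, 0.40 and 0.34 on the normal diet and 3.92, 3.40, 4.03 and 4.17 on low iodine. The arrays of each diet were tightly grouped and far apart. It rose by 3.51 and 5.80, but by 3.72 and 5.82 in Glis3KO2. The AP-1 factor Fosl2 (1.49 and 4.79), the cAMP phosphodiesterase Pde4d (1.02 to 5.17 over 4 probes) and the cAMP-responsive factor Creb1 (1.02 to 2.76 over 3 probes) rose on every probe too. Their Glis3KO2 differences were 1.42, 1.62 and 1.35, and with array median scaling the sign of Creb1 turned (-0.028) and the call of Fosl2 was lost (0.44). The full cAMP response element TGACGTCA was held by 5 of the 61 RefSeq promoters of the whole list (8.20%), against 1.79% of all promoters, and by none of the 10 promoters of the 7 genes.

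The largest rises on every probe, among genes with every probe well above background on at least 1 array of each group and no overlap of arrays on any probe, are listed next. These conditions were met, with an every-probe call, by 1712 genes (26.5%). Dcpp1, a salivary gland protein of a family with near-identical copies, rose by 8.77 and 9.59, and by 3.67 in Glis3KO2 (gap adjusted p = 0.0655). A probe can read more than 1 copy. Of the 6 salivary gland markers measured, Dcpp1 among them, 2 were higher and 3 lower (median -0.80, and 0.52 in Glis3KO2). Caldesmon (Cald1), an actin-binding protein of contractile cells, had scaled levels of -3.11, -2.38, -2.37, -2.42 and -3.15 on the normal diet and 3.56, 3.44, 3.56 and 3.64 on low iodine, with no overlap. It rose by 6.23 ± 0.20 and 6.27 (limma adjusted p = 1.39e-13), by 4.64 in Glis3KO2, with a gap of 1.59 (adjusted p = 0.0107).

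Adamts8, a secreted metalloproteinase, had the widest gap between genotypes among the genes named by rule whose gap passed. Its scaled levels were -4.60, -3.27, -4.80, -4.34 and -5.46 on the normal diet and 1.42, 1.21, 1.42 and 1.26 on low iodine. All low-iodine arrays were above all normal-diet arrays, which the choice of the largest rises required, and close to each other. It rose by 5.82 ± 0.48 and 6.17 (limma adjusted p = 8.65e-09), against 1.33 in Glis3KO2, a gap of 4.49 ± 0.68 (adjusted p = 0.00482).

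The microtubule protein Map1b (6.82 and 5.603), the zinc finger gene Zfp345 (6.57 and 5.74), butyrylcholinesterase (Bche, 7.33 and 4.44), the endothelial receptor Heg1 (6.89 and 4.57), Fbxl22 (8.55 and 3.49) and the general transcription factor Gtf2a1 (2.41, 7.68 and 6.65) rose too. Their Glis3KO2 differences on the brightest probe ranged from 0.62 for Gtf2a1 to 9.66 for Fbxl22, and none of these 6 had a gap past the threshold. The brightest probes of Fbxl22 and Bche were well above background on 3 of the 5 normal-diet arrays and the other probe of Bche on 1, so these sizes are set against levels mostly near background.

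**Figure D3:**
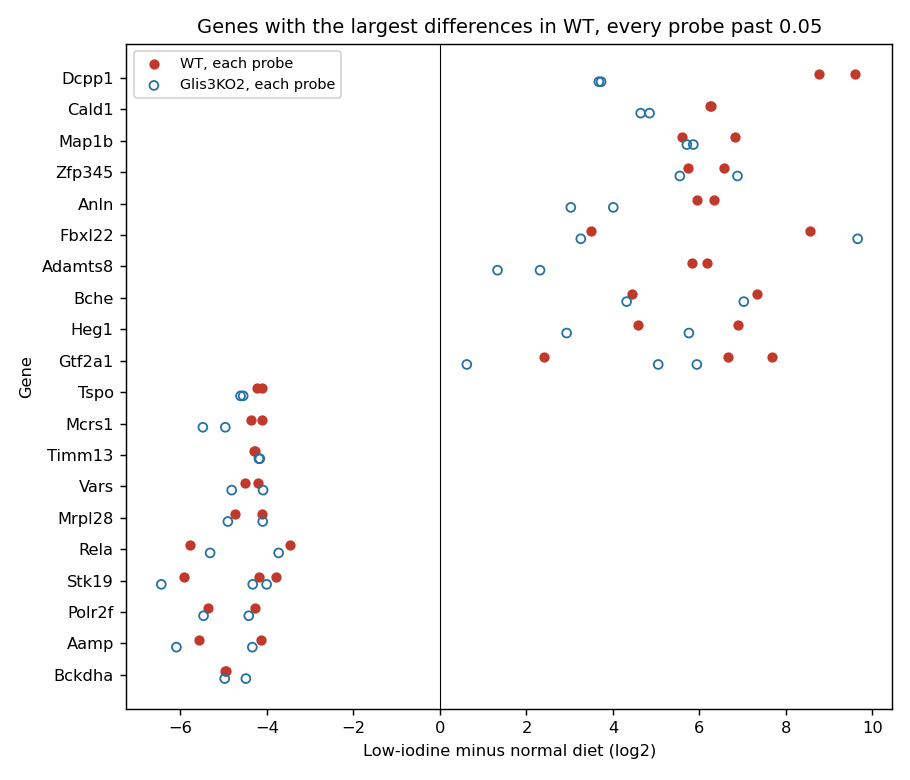
Differences between the diets (log2) of every kept probe of the 10 genes with the largest rises and the 10 with the largest falls in WT, with WT as filled and Glis3KO2 as open points. Most open points lie near their filled ones; of these 20 genes, the gap between the genotypes passed the test for Adamts8 and Cald1.

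The 10 largest falls were of the branched-chain keto acid dehydrogenase subunit Bckdha (-4.98 and -4.94), Aamp, the RNA polymerase subunit Polr2f, Stk19, the NF-kB subunit Rela (-5.78 and -3.46), the mitochondrial ribosome protein Mrpl28, valyl-tRNA synthetase (Vars), the mitochondrial import protein Timm13 (-4.27 and -4.29), Mcrs1 and the mitochondrial membrane protein Tspo (-4.23 and -4.12). Bckdha had scaled levels of 4.41, 4.75, 4.45, 4.34 and 4.08 on the normal diet and -0.71, -0.65, -0.51 and -0.43 on low iodine. Its arrays did not overlap, which was a condition for the choice of the largest falls. In Glis3KO2 the differences of the 10 ranged from -5.48 to -4.01 on the brightest probe, and the gaps between the genotypes had adjusted p-values from 0.318 to 0.967.

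Genes of protein synthesis and respiration were lower. Of 37 ribosomal protein genes, 35 fell and 1 rose (median -2.41), and of 14 with 2 or more probes 13 fell on every probe and 1 had both signs. Rplp0, a protein of the ribosomal stalk, had scaled levels of 8.11, 8.07, 7.93, 8.23 and 8.09 on the normal diet and 4.80, 4.51, 4.80 and 5.04 on low iodine. The groups were far apart on both probes. It fell by 3.30 ± 0.15 (limma adjusted p = 7.15e-12), with -2.86 on the other probe. Rps18 (-3.11 and -2.78) and Rpl5 (-2.53 and -0.55) fell on every probe too. In Glis3KO2 the list had a median of -2.05, and no member had a gap between the genotypes past the threshold in limma's test.

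Of 48 oxidative phosphorylation genes, 40 fell and 4 rose (median -1.38, and -1.60 in Glis3KO2), and of 9 with 2 or more probes 5 fell on every probe and 2 had both signs. The ATP synthase subunit Atp5b fell on 3 probes (-2.42 to -0.89), the complex III subunit Uqcrc1 on 2 (-3.80 and -2.30) and the complex I subunit Ndufa1 on 2 (-2.40 and -2.11). Proteasome genes gave 24 lower and 3 higher of 31 (median -1.15), with 4 of 8 falling on every probe, among them Psmb3 (-2.79 and -1.98), and 1 rising. Of 25 translation factors, 19 were lower (median -1.56), but of 17 with 2 or more probes 4 fell, 2 rose and 10 had both signs. Eif5a fell by 2.17 and had -0.81 on its other probe, and Eif4a1 rose on 3 probes (1.32 to 3.58), though not past the threshold with array median scaling (0.47).

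These falls became smaller when array distributions were made alike. Relative to the median of all genes, the ribosomal list stood at -2.49 with the scaling used here and at -0.87 after quantile normalization, and the oxidative phosphorylation list at -1.45 and, after cyclic loess, -0.09. Both lists hold bright probes, the range in which the spike-in probes were also lower on the low-iodine arrays. The part of the array set in these falls cannot be told apart from that of the diet.

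**Figure D4:**
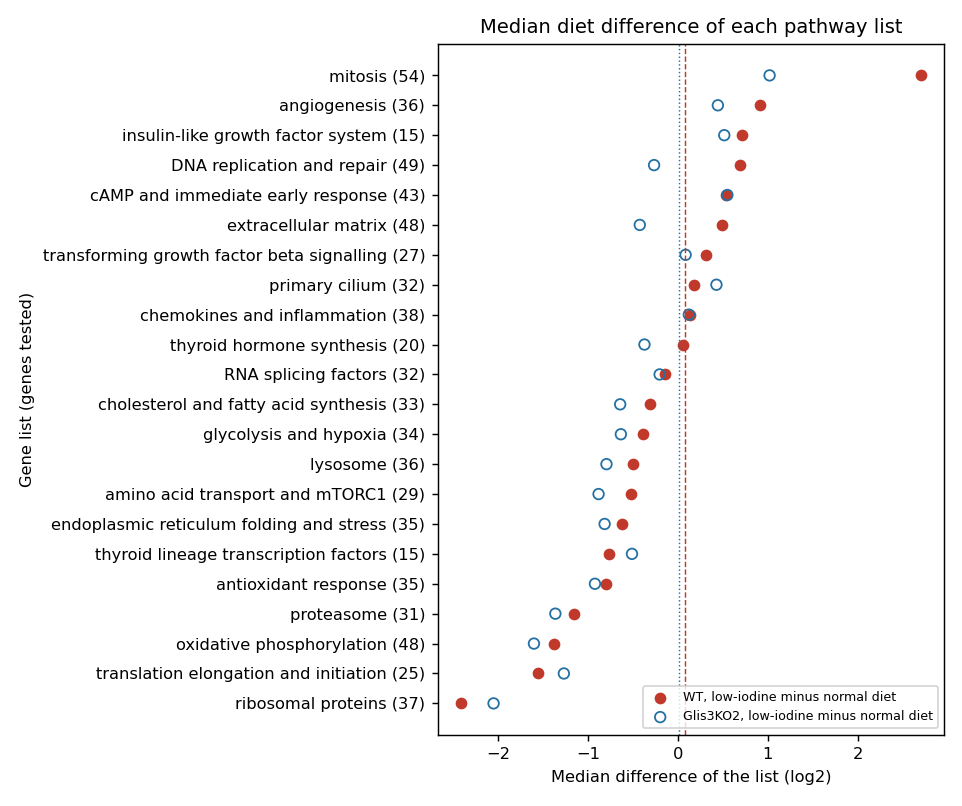
Median difference between the diets (log2) of each of the 22 pathway lists in WT (filled) and in Glis3KO2 (open), with the number of genes tested. Dashed and dotted lines mark the medians of all genes in WT (0.08) and in Glis3KO2 (0.01), and mitosis is the list that stands farthest to the right in WT.

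Among regulators of the thyroid lineage and of hormone response, 4 of 15 were higher and 9 lower (median -0.77), and of 7 with 2 or more probes 2 fell on every probe and 3 had both signs. Klf9, a thyroid hormone-responsive transcription factor, had scaled levels of 2.11, 2.37, 2.62, 2.32 and 2.45 on the normal diet and -1.11, -1.11, -1.80 and -0.74 on low iodine. Low-iodine arrays were all below normal-diet arrays. It fell by 3.56 ± 0.26 and had -4.17 on its other probe (limma adjusted p = 1.68e-09), with -2.68 in Glis3KO2. Thra, a thyroid hormone receptor, fell on both probes (-2.46 and -1.34), whereas the probes of the other receptor, Thrb, passed in opposite directions.

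Calcitonin-producing C cells lie between the follicles, and 7 of their 12 markers were lower and 2 higher (list mean 1.04 to 1.59 on the normal diet and 0.34 to 0.88 on low iodine). Calca, which encodes calcitonin, had scaled levels of 9.03, 9.42, 9.30, 9.35 and 9.09 on the normal diet and 5.27, 5.00, 5.33 and 5.46 on low iodine. The groups did not overlap on either probe. It fell by 3.97 ± 0.18 (limma adjusted p = 8.52e-12) and had -3.14 on the other probe, against -2.88 in Glis3KO2. The gap of -1.09 missed the threshold (adjusted p = 0.0507). Pcsk2, a prohormone convertase, fell on both probes (-1.93 and -3.50).

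**Figure D5:**
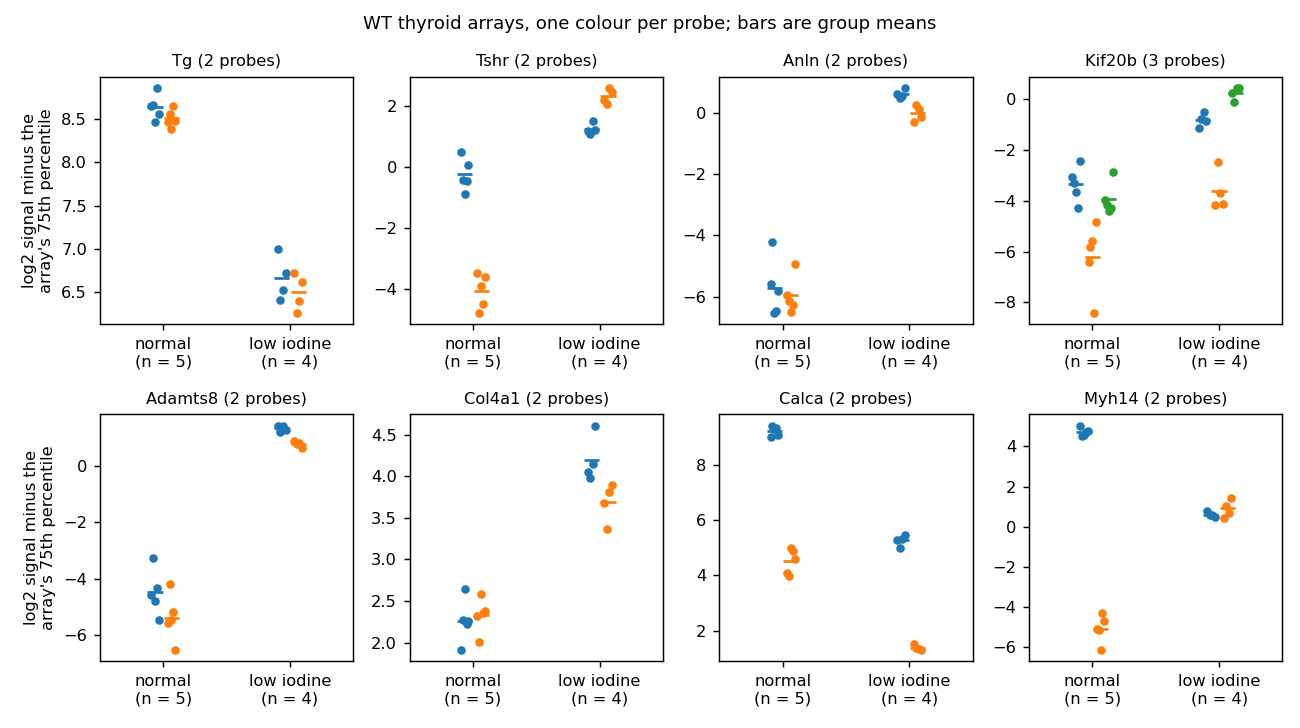
Scaled levels (log2 signal minus the array's 75th percentile) of 8 genes on the 5 normal-diet and 4 low-iodine WT arrays, 1 colour per probe, with a bar at each group mean. Tg and Calca are lower on low iodine on both probes, Tshr, Anln, Kif20b, Adamts8 and Col4a1 higher on all, and the probes of Myh14 move in opposite directions.

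Lipid and fuel metabolism showed mixed calls. Of 33 genes of cholesterol and fatty acid synthesis, 9 were higher and 14 lower (median -0.31), and of 18 with 2 or more probes 3 rose, 3 fell and 8 had both signs. The median of this list, and those of the glycolysis, lysosome and endoplasmic reticulum lists below, turned sign under some scalings. Fatty acid synthase (Fasn) had scaled levels of 7.14, 7.86, 7.52, 7.44 and 6.74 on the normal diet and 3.39, 2.11, 3.00 and 3.77 on low iodine, with no overlap, and fell by 4.27 (other probe -2.53). The isoprenoid enzyme Idi1 rose on both probes (3.15 and 3.74), while mevalonate kinase (Mvk, -1.91 and -1.62) and Pmvk (-1.05 and -1.10) fell. The Pmvk call was lost after cyclic loess (-0.39) and with slide means as samples (-0.92). Of the 12 brown fat and adipocyte markers, 9 were lower and 1 higher, with a list mean of 2.05 to 3.47 on the normal diet and 0.74 to 1.18 on low iodine, and resistin (Retn) fell on both probes (-3.68 and -3.11). Their part in the Fasn value was not tested.

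Glycolysis and hypoxia genes gave 5 higher and 16 lower of 34 (median -0.39), beside 39.4% and 36.5% of all genes. Of 13 with 2 or more probes 2 rose, 2 fell and 5 had both signs, beside 24.2% and 13.3% of genes that rose and fell on every probe. The same shares are the background for the lysosomal, endoplasmic reticulum and antioxidant counts that follow. Phosphofructokinase Pfkp rose (1.75 and 4.29), and aldolase A (Aldoa) fell (-1.96 and -1.76) except after quantile normalization without and with normexp (-0.18 and -0.37, not past). Lysosomal genes, whose enzymes digest thyroglobulin, gave 6 higher and 19 lower of 36 (median -0.50), with 1 rising, 3 falling and 7 of both signs among 13. Sialidase Neu1 fell on both probes (-1.54 and -2.70), and the lysosomal regulator Tfe3 rose on all 3 (1.10 to 2.53), but with array median scaling its brightest probe gave 0.043 and did not pass. Of 35 endoplasmic reticulum genes, 17 were lower and 5 higher (median -0.62), with 9 of 17 of both signs. The mean of that list was 3.06 to 4.85 on the normal diet and 2.71 to 3.06 on low iodine, so the arrays overlapped. The stress-induced pseudokinase Trib3 had scaled levels of 4.46, 0.28, 0.40, 0.38 and 4.09 on the normal diet and -1.80, -1.64, -1.88 and -2.44 on low iodine, and normal-diet replicates 1 and 5 stood far above the other 3. It fell on both probes (-3.86 and -4.23), with a difference of -3.23 without normal-diet replicate 1 and -3.32 without replicate 5. Antioxidant genes were lower in 21 of 35 (median -0.80), and of 9 with 2 or more probes 4 fell, among them the peroxiredoxin Prdx2 on 3 probes (-2.39 to -1.67), and 1 rose.

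In 25 genes with 2 or more probes, the gap between the WT and the Glis3KO2 diet difference passed on every probe in the same direction. This count was made after the values were seen, as were the names that follow. In 23 (0.356%) the gap was above 0 and in 2 (0.0309%), Fam221a and Rprm, below 0. The 23 were Vcl, Cks2, Col4a1, Col4a2, Cald1, Pde4b, Cdh5, Gpd2, Kpna2, Kif4, Col8a1, Entpd1, Pemt, Plau, Slfn9, Fbn1, Cacna2d2, Ckb, Ect2, Dcdc2a, Rph3a, Adamts8 and Adam12. They include matrix genes (Col4a1, Col4a2, Col8a1, Fbn1), secreted or surface proteases (Plau, Adamts8, Adam12) and genes of cell division (Kif4, Ect2, Cks2).

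Fibrillin 1 (Fbn1), the main protein of microfibrils, had scaled levels of -0.99, -1.32, -0.79, -1.37 and -0.85 on the normal diet and 1.69, 0.79, 1.22 and 0.76 on low iodine on its brightest probe. The groups did not overlap. Its probes differed by 2.18 to 4.73 in WT and -0.15 to 2.12 in Glis3KO2, and the gap was 2.33 to 2.62 (largest limma adjusted p over its probes 0.0262). Col4a2, the partner chain of Col4a1, rose by 0.91 to 1.24 over its probes, with gaps of 1.41 to 1.86. Ect2, an activator of the contractile ring, rose by 3.25 to 3.31, with gaps of 2.58 to 4.59, on probes well above background on as few as 3 of the 5 normal-diet arrays. Plau and Adam12 each had a probe not well above background on any normal-diet array, so no size is given for them. For Col8a1 the WT differences were -2.34 and 4.98, of opposite sign, and the gaps 1.85 and 2.05; the probes of Cks2, Ckb and Rph3a had both signs in WT as well. Over the 4796 genes with 2 probes, the correlation of the probes was 0.49 for the gap and 0.33 for the WT difference.

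Where probes of a gene disagreed most, no direction can be given. Myh14, a non-muscle myosin, had scaled levels of 5.04, 4.55, 4.59, 4.75 and 4.80 on the normal diet and 0.76, 0.55, 0.60 and 0.48 on low iodine on its brighter probe, a difference of -4.14, and a difference of 6.00 on the other. Both probes separated the groups fully, in opposite directions. Arid5b had differences from -5.30 to 6.32 over 6 probes (the highest well above background on 1 of 5 normal-diet arrays), Set from -2.29 to 9.14 over 3 (the highest on 2 of 5) and Zfp273 from -2.80 to 7.59 over 3. Mga differed by -1.76 and 2.10 on probes measured in both groups and was higher on another that was not well above background on any normal-diet array. In Glis3KO2 the probes of Myh14 gave -3.41 and 6.13, and each of the 5 genes had a gap on its brightest probe that did not pass.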

How the data were processed

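Arrays were grouped by their titles. Per the labels' protocols, an Ovation Pico kit amplified 50 ng of RNA and 5 ug of product was labelled; the submitters' processing notes name Feature Extraction 12. The authors deposited each spot's processed signal, a linear intensity after background subtraction, and a value table holding the same intensity. Control spots and spots with an outlier flag were removed, spots of a probe averaged, and log2 values centred on each array's 75th percentile. Of 41174 probes, 28223 (68.5%) matched 1 gene of the GRCm38.p6 table by accession and 12951 none; 82 with all spots flagged on an array were dropped, and the 26523 probes kept were above background on 4 or more of 18 arrays. Limma 3.58.1 (R 4.3.3; lmFit, contrasts.fit, eBayes) was fitted to 4 group means over 18 arrays, with Benjamini-Hochberg adjustment and a threshold of 0.05, and tested on simulated data. The number of arrays limits the precision.

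The members and the 22 pathway and 19 marker lists were chosen with earlier results of these data known. Named genes were all measured synthesis genes, the 10 largest every-probe rises and falls (no overlap, above background in both groups, no clone-like names), up to 4 every-probe calls per list with the smallest p, and the 5 widest disagreements; other genes were named after their values were seen. Some genes that the rule names are counted but not reported here. Alternatives covered scaling, background, filters, slide, probes per gene and left-out arrays. Normexp used the median spot signal.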

Additional observations from a re-analysis of the deposited data

Results flagged for a closer look

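For the named genes, each group of arrays was checked for a single value far from the rest by Dixon's gap test, which chance alone meets in about 1 in 20 groups. It was met 20 times in 260 groups, 11 times by low-iodine replicate 2, the array with the high median signal. On that array the scaled level lay apart from the nearest other low-iodine array for Dio1 (4.33 against 4.63), Dio3 (-0.31 against -2.80), Angpt1 (-0.84 against -2.76), Atp5b (4.18 against 4.62), Uqcrc1 (1.09 against 1.81), Igf2bp3 (-0.46 against -2.26), Insr (-1.23 against -0.78), Rpl5 (4.80 against 5.06), Ltbp3 (3.31 against 3.55), Cd22 (-1.26 against -3.19) and Dpp4 (0.65 against 1.38). Elsewhere the far values were Dio3 on normal-diet replicate 1 (-5.83 against -5.27), Fbxl22 on low-iodine replicate 1 (2.78 against 2.16), Kif20b on normal-diet replicate 5 (-2.85 against -3.98), Hspa13 on low-iodine replicate 1 (1.67 against 1.23), Idi1 on normal-diet replicate 1 (0.23 against 0.81), Atp6v1h on normal-diet replicate 2 (1.24 against 1.70), Eif5a on normal-diet replicate 4 (3.76 against 4.28), Psmc4 on normal-diet replicate 4 (3.84 against 3.97) and Ltbp3 on normal-diet replicate 1 (4.94 against 4.42).

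The diet difference of 7 of the 130 named genes differed between WT and Glis3KO2 in limma's test of that gap: Slc5a5 by 3.38 (adjusted p = 0.00987), Cald1 by 1.59 (adjusted p = 0.0107), Adamts8 by 4.49 (adjusted p = 0.00482), Kif20b by 2.60 (adjusted p = 0.00987), Col4a1 by 1.75 (adjusted p = 0.0126), Col5a3 by 1.45 (adjusted p = 0.0308) and Cdh5 by 1.51 (adjusted p = 0.0261). In all 7 the WT difference was the higher. Slc5a5 rests on a single probe, and for Col5a3 and Kif20b the gap did not pass on every probe.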

How the results depend on the processing

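Scaling moved the counts most. With the array median as the scale, 4122 genes were higher and 9860 lower (70.5% lower, against 48.1% with the 75th percentile), and every-probe calls were 620 higher and 1744 lower (73.8% against 35.5% lower); the median over all genes was then -0.98 instead of 0.08. Every-probe rises numbered 1031 after quantile normalization and 1015 after normexp with quantile normalization, where 52.7% and 52.9% of every-probe calls were lower, and no scaling (48.0%) and cyclic loess (46.2%) shifted the split as well. All 5 other scalings kept 403 every-probe rises and 667 falls. With probes above background on all 9 WT arrays, 14313 genes were tested, and 4691 were higher and 6193 lower (56.9% of calls lower). Of the 5083 genes with 2 or more such probes, 1015 rose and 862 fell on every probe (45.9% of every-probe calls lower). Leaving out each array in turn gave 6711 to 7051 genes higher, 6210 to 6765 lower, 1461 to 1557 every-probe rises and 805 to 919 falls. Slide as a random block gave 1536 and 845, slide means as samples 1482 and 800. The replicate numbers do not pair the arrays (correlations of deviations for numbers 1 to 4 of 0.14, 0.32, 0.14 and -0.06, and 2 of 4 normal-diet arrays correlated best with their own number), and a replicate block gave 6993 genes higher, 6643 lower and 1540 and 861 every-probe calls. Of 130 named genes, 123 were called, 86 of them under every alternative.

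Signs turned for Dio1 (0.70 after quantile normalization, 0.92 after cyclic loess, 0.57 after normexp), for Psap (0.084 after cyclic loess) and for Zfp273 (5.70 after normexp). With array median scaling they turned for Slc26a4 (-0.12), Kcnq1 (-0.70), Kcne3 (-0.90), Creb1 (-0.028), Atf6 (-0.38), Eno2 (-0.049), Slc6a6 (-0.32), Insr (-0.24), Srsf4 (-0.47), Srsf1 (-0.30), Abcc9 (-0.25) and Dpp4 (-0.20). With the mean of all probes they turned for Arid5b (2.05), Set (2.62), Zfp273 (1.22) and Myh14 (0.93), whose probes disagree. The cause was not tested.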

Other observations

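Several lists outside the thyroid's main functions were also counted. Of all genes, 39.4% were higher and 36.5% lower, and of those with 2 or more probes 24.2% rose and 13.3% fell on every probe. Of 32 primary cilium genes, 14 were higher and 14 lower (median 0.18). Of 18 with 2 or more probes 5 (27.8%) rose and 2 (11.1%) fell on every probe, near those shares. Ift80 (3.49, and 2.77 on a probe well above background on 1 of 5 normal-diet arrays), the polycystin Pkd2 (1.93 and 3.44) and the centrosomal protein Cep290 (1.97 and 2.37) rose, and Ift20 fell (-1.76 and -1.28), each with nearly the same difference in Glis3KO2 (3.33, 1.98, 1.96 and -1.61). Of 32 splicing factors, 11 were higher and 13 lower (median -0.14), 4 rose and 1 fell on every probe of 22 with 2 or more probes, and 12 had both signs; Srsf2 rose on all 3 probes (1.15 to 3.55). In the insulin-like growth factor system 8 of 15 were higher and 3 lower (median 0.71), and the binding protein Igfbp5 rose on both probes (1.38 and 3.45), a call lost with array median scaling (0.33). Igf2bp3 was higher on all 3 probes, but these were well above background on 2, 1 and 4 of the 5 normal-diet arrays.

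Transforming growth factor beta signalling gave 13 higher and 8 lower of 27 (median 0.32), beside 39.4% and 36.5% of all genes. Of its 10 genes with 2 or more probes, 5 (50%) rose and 2 (20%) fell on every probe, beside 24.2% and 13.3%. With array median scaling 4 rose and 4 fell on every probe, and the list's median was -0.74. The SMAD corepressor Skil (2.50 and 1.96) and the receptor Tgfbr1 (1.70 and 3.67) rose. Of 29 amino acid transport and mTORC1 genes 15 were lower and 6 higher (median -0.52), whereas the arginine transporter Slc7a1 rose on both probes (2.34 and 3.06). Of 38 chemokine and inflammation genes 14 were higher and 11 lower (median 0.13), neither above the share of all genes. The chemokine Ccl7 rose on both probes (3.60 and 4.02). B cell markers were higher in 4 of 7 and lower in 1, with a list mean of -4.91 to -3.84 on the normal diet and -2.92 to -1.51 on low iodine. These are dim levels, and only 4 of the 7 were well above background on all 9 WT arrays. Their median difference was 2.40, and 0.61 after normexp with quantile normalization. Skeletal muscle markers varied widely within both diets (list mean -2.99 to 3.28 on the normal diet and -2.79 to 2.09 on low iodine), and 1 of 16 was higher. Of 15 thymus and T cell markers, 2 were higher and 4 lower, with a list mean of -3.30 to 0.34 on the normal diet and -4.01 to -2.33 on low iodine. Every measured marker of the 19 marker lists was well above background on at least 1 WT array. The filter, which kept probes above background on 4 or more of 18 arrays, nearly fixed this outcome, so it says nothing of markers not measured. Measured were 15 of 18 thymus and T cell, 9 of 11 neutrophil and mast cell, and 6 of 8 markers each of red blood cell and salivary gland.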
